A study of Mus with 21 samples.

Results

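Cux1, Cux2, Rorb and Pou3f2 are transcription factors of upper layer neurons of the cerebral cortex, and Bcl11b, Fezf2, Tbr1, Tle4 and Foxp2 are transcription factors and a corepressor of deep layer neurons. These 9 genes were taken by symbol from the 55335 genes of the deposited count table, and all 9 passed the filter on low counts that left 30552 genes for testing. Their read counts were compared in whole brains of female embryos at E17.5, late in gestation, that were WT or heterozygous for a deletion of Nipbl, of Wapl or of both, genes whose products act in opposite directions on the amount of the ring complex cohesin bound to chromatin (Nipbl in its loading, Wapl in its release).

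The neurons of the cortex are born in sequence from progenitors next to the ventricle, deep layers before upper layers, and late in gestation the upper layer neurons are still migrating and maturing. Deep layer neurons send axons to the spinal cord, brainstem and thalamus, whereas most upper layer neurons connect areas within the cortex. The factors that mark the layers also restrain each other's programs: Fezf2 and Bcl11b drive the subcerebral fate, and Tbr1 drives the corticothalamic fate and represses Fezf2.

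The 5 WT libraries carried Wapl +/+ with Nipbl +/+, the 3 Nipbl+/- libraries carried Wapl +/+ with Nipbl +/delta, and the 7 Wapl heterozygous libraries carried Nipbl +/+ with Wapl delta/+ (replicates 1 and 2) or Wapl +/delta (replicates 3 to 7). The 6 double heterozygous libraries carried Nipbl +/delta with Wapl delta/+ (replicates 1 to 4) or Wapl +/delta (replicates 5 and 6). The mice were on a C57BL/6J background, the Wapl deletion had been made through the germline with E2a-Cre and removed the promoter and first exons, and the Nipbl deletion was made in the germ cells of sires with Stra8-icre, so every cell of a mutant embryo carried its alleles. Each library came from the brain of a separate embryo, and 1 further Nipbl+/- library was not analysed here.

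The libraries held between 25682566 and 35818767 counts in total. A factor had between 647 and 7573 reads in a library, which corresponds to a counting error of 1.15% to 3.93%. Levels are given below as normalized read counts, that is, counts scaled to the mean library size after TMM normalization. Wapl was lower in the Wapl heterozygotes (log2 fold change -1.09) and the double heterozygotes (-1.01), and Nipbl was lower in the Nipbl+/- (-0.89) and double heterozygous brains (-0.86), with no overlap with WT. The libraries fell into a set with 52 to 106 counts of the mitochondrial gene mt-Nd3 and a set with 0 to 6. WT replicates 4 and 5 and every library labelled Wapl +/delta were in the high set, and the other 12 libraries, the 3 Nipbl+/- libraries included, were in the low set, so that within the mutant groups the mt-Nd3 set cannot be told apart from the way the labels write the Wapl genotype. Replicate 7 of the Wapl heterozygotes and replicate 5 of the double heterozygotes stood apart by low levels of several of the 9 factors, and results that rest on them are given with and without them.

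Of the 9 factors, Fezf2 was called in Nipbl+/- brains and none in the other genotypes. At an adjusted p below 0.10 (edgeR), 1 of 9 rose in Nipbl+/- brains and none fell, and 11.2% of the 30552 genes passed the test, with 4.25% higher and 6.96% lower, so that the share of factors called was near that of all genes. Among the 9927 genes whose mean was 500 normalized counts or more, a class that holds all 9 factors, 23.4% were called in the same comparison. In Wapl heterozygotes 0 of 9 factors were called (2.22% of all genes, 4.49% of that class), and in double heterozygotes 0 of 9 (3.28% and 6.3%). DESeq2 called 1, 0 and 0 of the 9 in these comparisons, beside 3504, 1446 and 1480 of all genes. At an unadjusted p below 0.05 edgeR gave 4, 2 and 1 of the 9, beside 6117, 4780 and 4123 of the 30552 genes. The comparisons share the 5 WT libraries. The median absolute log2 difference of the 9 factors from WT was 0.07 in Nipbl+/- brains, beside 0.07 for the genes with at least 500 counts and 0.16 for all genes tested. Because the tissue is whole brain, fewer cortical neurons and less RNA per neuron cannot be told apart, and most of these genes are also transcribed outside the cortex, in striatum, thalamus or cerebellum.

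**Figure D1:**
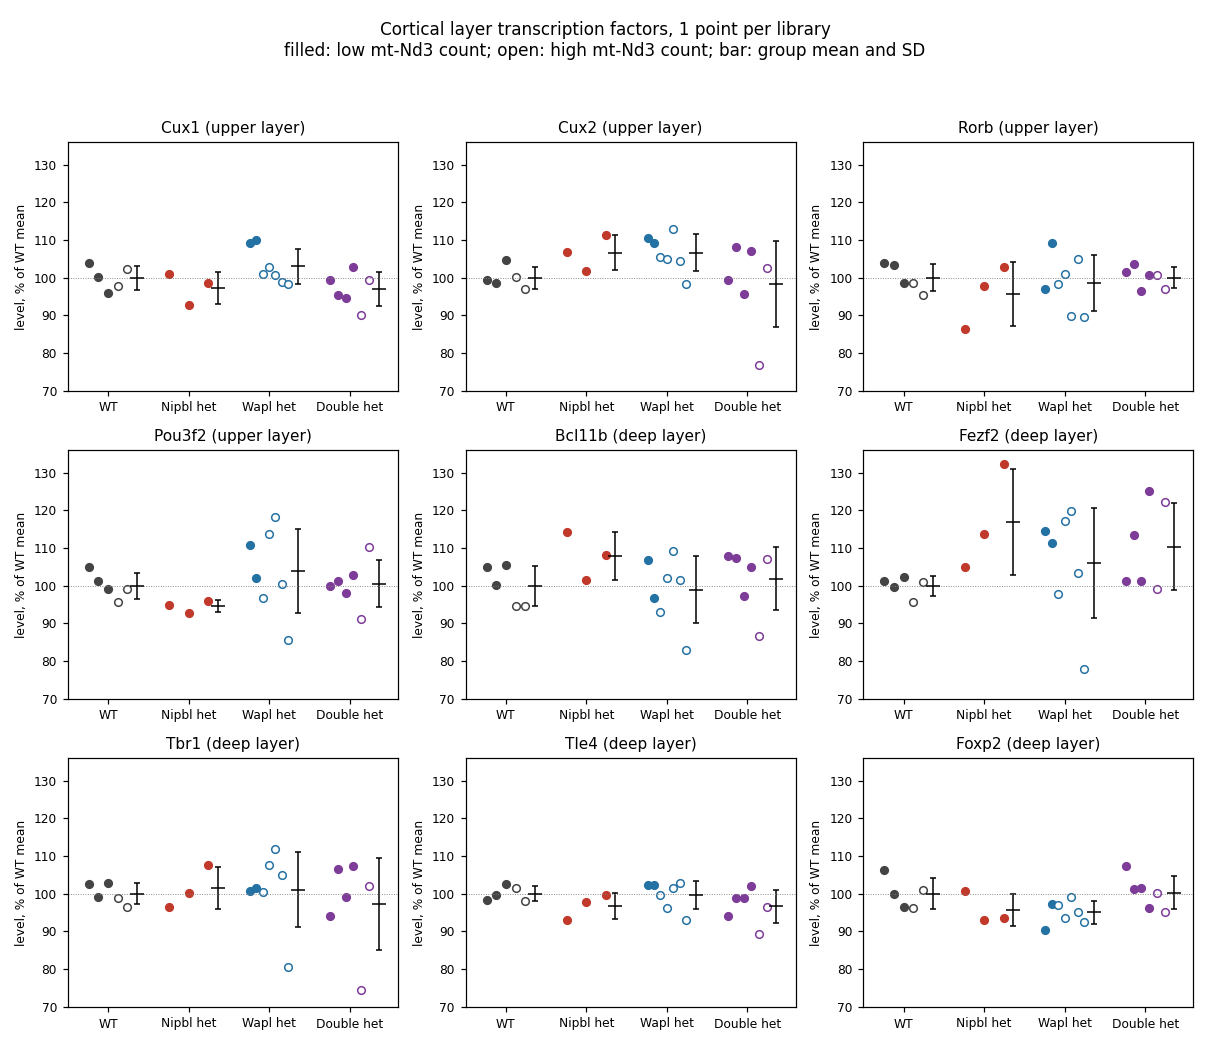
Level of each of the 9 factors in every library as a percentage of the WT mean (vertical axis) by genotype group, with the group mean and SD as a bar and libraries of the high mt-Nd3 set as open points. Of the 144 points of mutant libraries 67 lie within the WT range of their factor (4 of 16 for Fezf2 and 11 of 16 for Rorb), Fezf2 is above WT in the 3 Nipbl+/- libraries, and replicate 7 of the Wapl heterozygotes and replicate 5 of the double heterozygotes hold the low values of Tbr1.

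Fezf2, the zinc finger factor that specifies corticospinal and other subcerebral neurons, was the factor that rose. In the 5 WT libraries it measured 1061, 1042, 1071, 1000 and 1058 normalized counts, a narrow range. In the 3 Nipbl+/- libraries it measured 1098, 1190 and 1384. All 3 were above every WT library, although replicate 1 was only just above and replicate 3 stood well above the other two. The log2 fold change was 0.22 (SE 0.06, 95% interval 0.09 to 0.34, adjusted p = 0.0286, edgeR), an increase of 16.4%. Among the 9 factors the groups did not overlap for 1, Fezf2, and they did not for 13.4% of all genes; for Wapl heterozygotes against WT the counts were 0 of 9 and 1.2%, and for double heterozygotes 0 of 9 and 2.76%. The call was lost without Nipbl+/- replicate 3 (0.13, adjusted p = 0.158), with all 4 groups in one edgeR fit (0.25, adjusted p = 0.174) and with the mt-Nd3 set as a term (0.20, adjusted p = 0.109). Since every Nipbl+/- library was in the low mt-Nd3 set, the comparison was repeated against the 3 WT libraries of that set, which gave a log2 fold change of 0.20 with an adjusted p of 0.152 (edgeR). Within the set the difference kept its size and did not pass the test.

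In the Wapl heterozygotes Fezf2 ran from 816 to 1254 (median 1166). Replicate 7 was below all WT libraries, replicate 3 was inside the WT range, and the other 5 were above it. The difference from WT on the log2 scale was 0.09 (SE 0.07, adjusted p = 0.624). In the double heterozygotes it ran from 1036 to 1309 (median 1124), and 3 libraries lay above all WT libraries while the other 3 were within the WT range. The log2 fold change of 0.15 (SE 0.06, 95% interval 0.03 to 0.27) had an adjusted p of 0.216 by edgeR. Without replicate 5 of the double heterozygotes it was 0.18 and was called (adjusted p = 0.0601, edgeR). That library held the lowest Fezf2 of its group and was singled out for low levels of these factors, so the call adds no separate evidence of a rise.

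Bcl11b (also Ctip2), which acts downstream of Fezf2 in corticospinal neurons and is also a major factor of striatal projection neurons, measured 6789, 6477, 6812, 6117 and 6112 in WT. The 3 Nipbl+/- libraries measured 7385, 6565 and 6986. Replicates 1 and 3 were above all WT libraries and replicate 2 was inside the WT range. With a log2 fold change of 0.10 (SE 0.05, adjusted p = 0.197, edgeR) the difference did not pass the test. Without Nipbl+/- replicate 2, the lowest of the 3, it was 0.14 and passed (adjusted p = 0.052, edgeR). In WT the libraries of the high mt-Nd3 set were the lower ones (6112 and 6117 against 6477 to 6812 in the low set). The Nipbl+/- mean was 6979, beside 6461 over all WT libraries and 6693 over those of the low set. Bcl11b was not called within the low set or with the mt-Nd3 set as a term. The effect of the set itself on Bcl11b was not tested. In the Wapl heterozygotes Bcl11b ran from 5360 to 7064 (log2 fold change -0.01) and in the double heterozygotes from 5607 to 6964 (0.04), in both cases around the WT values.

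Tbr1, the T-box factor of corticothalamic neurons, was close to WT in all mutants. Its 5 WT libraries lay between 3315 and 3539 and its Nipbl+/- libraries measured 3319, 3446 and 3699. Nipbl+/- brains had a log2 fold change of 0.02, with a 95% interval of -0.07 to 0.10. In the Wapl heterozygotes 6 libraries lay between 3450 and 3845, and replicate 7 measured 2769. In the double heterozygotes 5 libraries lay between 3231 and 3691, and replicate 5 measured 2561. The group means were 101% and 97.3% of WT, but the SD rose from 94.6 in WT to 343.0 in Wapl heterozygotes and 419.0 in double heterozygotes. Without those 2 libraries the SD was 158.0 and 189.5, still above that of WT.

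Tle4, a Groucho family corepressor of corticothalamic neurons, had the smallest spread over the WT libraries (coefficient of variation 1.99%), with 2978 to 3115 in WT and 2826 to 3030 in Nipbl+/- brains. Its log2 fold changes were -0.05, -0.00 and -0.04 in Nipbl+/-, Wapl heterozygous and double heterozygous brains, and the 95% interval in Wapl heterozygotes bounded the difference between -4.56% and 4.72%. Foxp2, a forkhead factor of deep layer neurons that is also made in striatum, thalamus and Purkinje cells, measured 2441 to 2699 in WT. It measured 2553, 2359 and 2375 in Nipbl+/- brains and 2297 to 2514 (median 2413) in Wapl heterozygotes. In Wapl heterozygotes 4 of 7 libraries were below all WT libraries and the others were inside the WT range. Its log2 fold change was -0.07 in both groups (SE 0.04 and 0.03), with adjusted p of 0.394 and 0.307 (edgeR), and it was 0.02 in double heterozygotes.

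Among the upper layer factors, Cux2, a homeobox factor of upper layer neurons that shapes their dendrites and spines, measured 4451, 4414, 4679, 4483 and 4335 in WT. It measured 4773, 4557 and 4976 in Nipbl+/- brains, where replicates 1 and 3 exceeded every WT library. In Wapl heterozygotes it ran from 4400 to 5057 (median 4717), and 5 of 7 libraries exceeded every WT library. The log2 fold change was 0.09 (SE 0.04, adjusted p = 0.217) in Nipbl+/- and 0.10 (SE 0.03, adjusted p = 0.184) in Wapl heterozygous brains by edgeR, and neither passed the test. Without replicate 7, the Wapl heterozygotes had a log2 fold change of 0.11 and Cux2 was called (adjusted p = 0.0942, edgeR). That library held the lowest Cux2 of its group and was singled out for low levels of these factors. Its removal therefore favours a call, and the call adds no separate evidence of a rise. In the double heterozygotes Cux2 was not displaced from WT: 5 libraries lay between 4277 and 4840, replicate 5 measured 3440, and the log2 fold change was -0.02 with a 95% interval of -0.14 to 0.11.

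Pou3f2 (also Brn2), a POU factor that works with Pou3f3 in the production and migration of upper layer neurons, measured 2512 to 2761 in WT. The Nipbl+/- libraries measured 2496, 2437 and 2520, below every WT library for replicates 1 and 2 and just above the lowest for replicate 3. This gave a log2 fold change of -0.09 (SE 0.04, adjusted p = 0.203, edgeR). In Wapl heterozygotes it spread from 2245 to 3106 and in double heterozygotes from 2395 to 2895, on both sides of WT (log2 fold changes 0.06 and 0.02). Cux1, the paralog of Cux2, measured 4807 to 5202 in WT and had log2 fold changes of -0.04, 0.05 and -0.03 in Nipbl+/-, Wapl heterozygous and double heterozygous brains. Its 2 Wapl heterozygous libraries of the low mt-Nd3 set measured 5463 and 5503, above all others of the series, while the 5 of the high set lay between 4925 and 5154. Rorb, a nuclear receptor of layer IV that is also made in the thalamus, measured 837 to 912 in WT and had log2 fold changes of -0.07, -0.02 and 0.01.

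**Figure D2:**
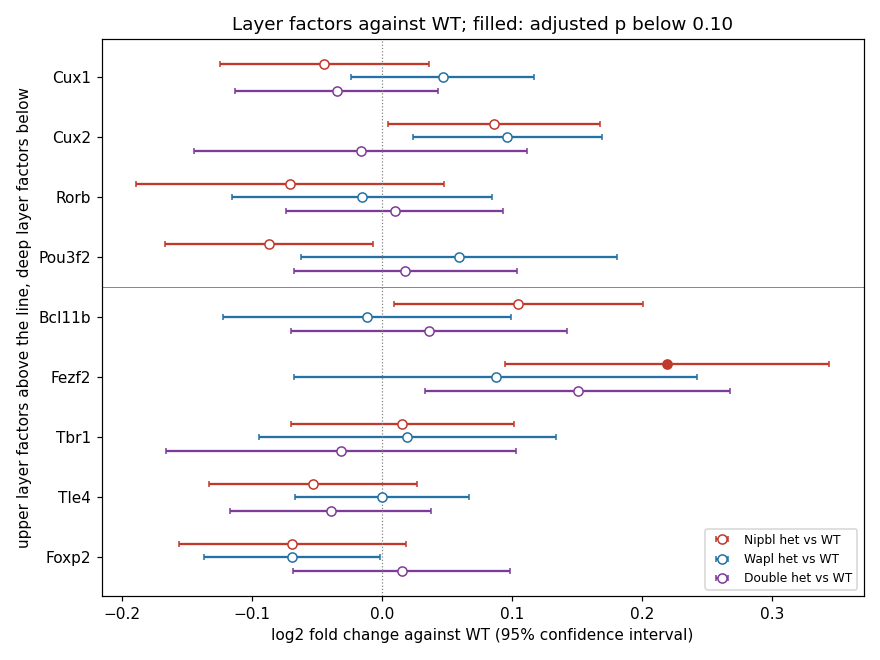
Log2 fold change against WT (horizontal axis, with 95% confidence interval) of the 9 factors in Nipbl+/-, Wapl heterozygous and double heterozygous brains from the edgeR fits, upper layer factors above the line. The filled point, Fezf2 in Nipbl+/- brains (0.22), is the call at adjusted p below 0.10, and 20 of the 27 intervals include 0.

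The mutant groups were also compared with each other. No factor was called in double heterozygotes against Nipbl+/- (0 of 9, with 0.00655% of all genes called), against Wapl heterozygotes (0 of 9, with 1.02%), or in Nipbl+/- against Wapl heterozygotes (0 of 9, with 1.16%). DESeq2 called none of the 9 in these comparisons either, beside 5, 626 and 647 of all genes. At an unadjusted p below 0.05 edgeR gave 0, 1 (Foxp2) and 0 of the 9, beside 1259, 3037 and 3150 of all genes. Cux2 was lower in double heterozygotes than in either single mutant, by log2 fold changes of -0.11 (SE 0.08) against Nipbl+/- and -0.11 (SE 0.06) against Wapl heterozygotes. Both differences rest in part on replicate 5 of the double heterozygotes, which measured 3440 where the others measured 4277 to 4840. Pou3f2 was 0.09 (SE 0.05) higher in double heterozygotes than in Nipbl+/- brains and -0.14 (SE 0.07) in Nipbl+/- against Wapl heterozygotes. For Fezf2 the log2 difference was -0.08 (SE 0.08) in double heterozygotes against Nipbl+/- and 0.14 (SE 0.10) in Nipbl+/- against Wapl heterozygotes. Cux1 and Foxp2 differed by -0.08 (SE 0.04) and 0.08 (SE 0.04) between double and Wapl heterozygotes, and Bcl11b by 0.13 (SE 0.07) between Nipbl+/- and Wapl heterozygotes. None of these differences passed the test.

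The interaction of the genotypes, that is, the departure of the double heterozygotes from the sum of both single mutant differences on the log2 scale, was called for 0 of 9 factors and for 0% of all genes by edgeR, whereas 4221 genes had an unadjusted p below 0.05 and DESeq2 called 793. Of the factors, DESeq2 called none and edgeR gave 2 at an unadjusted p below 0.05. The interaction of Cux2 was -0.24 (SE 0.09, 95% interval -0.41 to -0.06, adjusted p = 0.230, edgeR). It was -0.15 without replicate 5 of the double heterozygotes (adjusted p = 0.314), the library with the lowest Cux2. The interaction of Foxp2 was 0.12 (SE 0.06, adjusted p = 0.359) and that of Fezf2 was -0.19 (SE 0.12, adjusted p = 0.527).

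The balance between these upper and deep layer factors was described in each library. The mean log2 CPM (reads scaled to library size) of the 5 deep layer factors was subtracted from that of the 4 upper layer factors. The difference was -0.069, -0.059, -0.110, -0.064 and -0.071 in WT and -0.143, -0.146 and -0.150 in Nipbl+/- brains, so every Nipbl+/- library was below every WT library. The Fezf2 and Bcl11b values described above (117% and 108% of the WT mean in Nipbl+/- brains) are part of this difference. Cux1, Rorb and Pou3f2 were below the WT mean there and Tbr1 above it. Not every factor moved with its layer: upper Cux2 was at 107%, and deep Tle4 and Foxp2 at 96.8% and 95.7%. The other upper and other deep layer genes described below had similar median log2 fold changes in Nipbl+/- brains (-0.17 and -0.18). In Wapl heterozygotes it ran from -0.118 to 0.048 (median -0.035) and overlapped WT, with the highest value in replicate 7, whose deep layer factors were low. In double heterozygotes it ran from -0.125 to -0.078 (median -0.11), and 3 of 6 libraries were below all WT libraries. These values are a description without a test. The mean difference moved from -0.075 ± 0.020 (SD, n = 5) in WT to -0.146 ± 0.004 (SD, n = 3) in Nipbl+/-, -0.032 ± 0.052 (SD, n = 7) in Wapl heterozygotes and -0.105 ± 0.020 (SD, n = 6) in double heterozygotes.

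**Figure D3:**
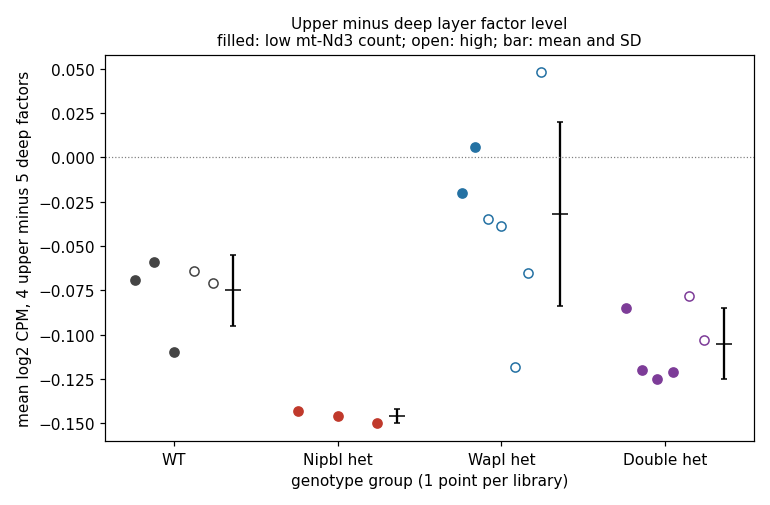
Mean log2 CPM of the 4 upper layer factors minus that of the 5 deep layer factors (vertical axis) in each library by genotype group, with the group mean and SD as a bar and libraries of the high mt-Nd3 set as open points. The 3 Nipbl+/- libraries lie between -0.150 and -0.143, below the 5 WT libraries between -0.110 and -0.059.

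Other genes used as layer markers were mostly lower in the Nipbl+/- brains. Of 18 other upper layer genes 11 fell and 1 rose (median log2 fold change -0.17), and of 22 other deep layer genes 11 fell and 3 rose (median -0.18), beside a median of -0.04 for the 9 factors and -0.01 for all genes tested. Over all genes 6.96% were called lower and 4.25% higher, and 23.4% were called among genes with a mean of 500 or more. Inhba, an activin subunit, fell by 0.87 on the log2 scale (adjusted p = 0.000187), Mef2c, an activity-regulated factor of synapse development, fell by 0.78 (adjusted p = 0.000213), and Rasgrf2, a Ras exchange factor of layer II and III neurons, fell by 0.58 (adjusted p = 0.000644). On the deep side, Etv1 of layer V fell by 0.52, Ldb2, a LIM domain cofactor of corticospinal neurons, by 0.42, and the subplate genes Nr4a2, Ccn2 and Moxd1 by 0.36, 0.37 and 0.93. The genes that rose were Lhx2 (0.20), a selector of cortical identity in progenitors, Otx1 (0.31), Nxph4 (0.20) and Nfib (0.18).

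In Wapl heterozygotes 0 of the 18 other upper layer genes and 0 of the 22 other deep layer genes were called by edgeR, beside 2.22% of all genes. DESeq2 called 1, Otx1, higher. With the replicate number as a block edgeR called 4 other upper layer genes lower, beside 1137 of all genes. With the Wapl heterozygotes limited to those labelled Wapl delta/+ it called 2 other deep layer genes lower, beside 562 of all genes. Without Wapl heterozygous replicate 2 Plxna4 and Rasgrf2 were called lower, without replicate 3 Mef2c, and without replicate 6 Mef2c and Rasgrf2, while Lhx2 was called higher without replicate 7 and Otx1 without replicate 6 or 7. In double heterozygotes 7 of 18 other upper layer genes fell, and 7 of 22 other deep layer genes fell and 2 rose, beside 2.46% of all genes lower and 0.812% higher. Mef2c (-0.60) and Inhba (-0.47) were lower again, and so were Etv1 (-0.30), Ldb2 (-0.29) and Nr4a2 (-0.39). The count of 7 deep layer genes became 11 without replicate 5 of the double heterozygotes, 4 without replicate 1 or 4 of them or WT replicate 1, 2 or 3, and 3 without WT replicate 4 or within the low mt-Nd3 set. Etv1, Ldb2 and Nr4a2 were called lower in each of these. The count of 7 upper layer genes ran from 5 to 10 over single omissions. Within the high mt-Nd3 set, with 2 libraries per group, 0 of the other upper and 0 of the other deep layer genes were called lower. In the direct comparison of Nipbl+/- with Wapl heterozygotes, 2 of 18 other upper layer genes and 6 of 22 other deep layer genes were lower in Nipbl+/- brains, beside 0.887% of all genes. Inhba (-0.64), Etv1 (-0.41) and Moxd1 (-0.98) were among them. With each library left out in turn, Nipbl+/- brains had 8 to 11 of the other upper layer genes and 8 to 12 of the other deep layer genes lower, and within the low mt-Nd3 set they had 8 and 8. A single fit of all 4 groups gave 7 and 5.

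**Figure D4:**
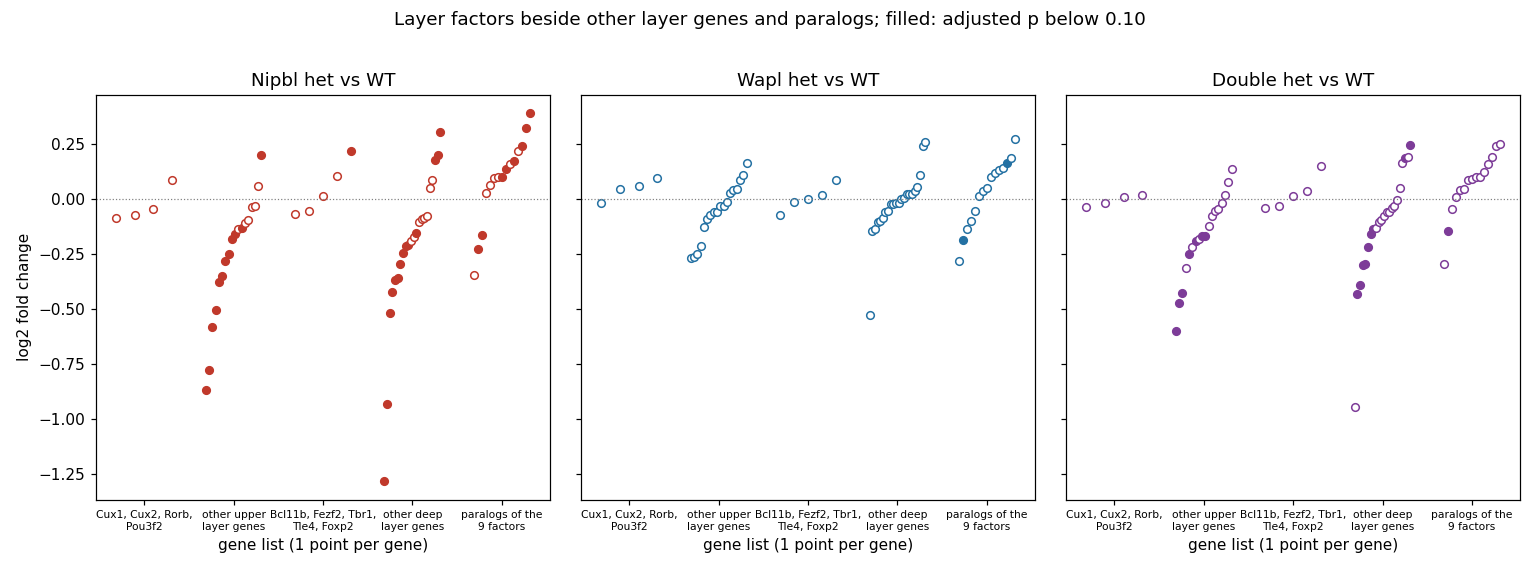
Log2 fold change against WT (vertical axis) of each gene of 5 lists, the 4 upper and 5 deep layer factors, 18 other upper layer genes, 22 other deep layer genes and 15 paralogs of the factors, in 3 panels for Nipbl+/-, Wapl heterozygous and double heterozygous brains, with calls at adjusted p below 0.10 filled. Fezf2 at 0.22 is the called factor in the Nipbl+/- panel, and 11 other upper and 11 other deep layer genes are called lower in Nipbl+/- brains, beside 6.96% of all genes.

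Paralogs of the factors moved in Nipbl+/- brains as well. The list of 15 leaves out Pou3f1 and Pou3f3, relatives of Pou3f2 that were placed among the other upper layer genes. Of 15 paralogs, 6 rose and 2 fell, beside 4.25% higher and 6.96% lower over all genes and 23.4% called among genes with a mean of 500 or more. The 6 were Tle2 (0.24) and Tle3 (0.18), Groucho corepressors like Tle4, Fezf1 (0.39), the close relative of Fezf2, Eomes (0.33), the T-box factor of intermediate progenitors, Foxp4 (0.14), and Bcl11a (0.10), which is made in both upper and deep layers. Foxp1, the partner of Foxp2 in striatum and the forkhead factor of layers III to V, fell by 0.23 (SE 0.04, adjusted p = 0.00164), and Rora, the relative of Rorb, fell by 0.16. Foxp1 was also lower in Wapl heterozygotes (-0.18, SE 0.03, adjusted p = 0.0381) and in double heterozygotes (-0.15, SE 0.04, adjusted p = 0.0559), each without overlap with the shared WT libraries. The call of Foxp1 was lost in Wapl heterozygotes without WT replicate 2, and in double heterozygotes without WT replicate 2, 3 or 4 or without their replicate 4 or 6, and it was not called in either within the low mt-Nd3 set. Tle1 rose in Wapl heterozygotes (0.16, adjusted p = 0.0835), and 0 paralogs rose there when any WT library or Wapl heterozygous replicate 1, 4 or 5 was left out, 2 without replicate 2 and 3 without replicate 7. The count of 6 paralogs that rose in Nipbl+/- brains fell to 2 without Nipbl+/- replicate 1 and to 1 in the low mt-Nd3 libraries. Rora was not called by DESeq2, within the low mt-Nd3 set, without WT replicate 1, 2 or 5 or without any 1 of the 3 Nipbl+/- libraries, whereas Foxp1 was called in each of these. No paralog rose in double heterozygotes by edgeR, but Eomes did without their replicate 3, and 5 did without their replicate 5.

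Genes of the lineage that makes the cortical neurons moved in both directions in Nipbl+/- brains, where the shares over all genes given for the paralogs apply to this and the following lists. Of 14 genes of the cortical excitatory lineage 5 rose and 4 fell, with Neurog2 (0.67), Emx1 (0.26) and Emx2 (0.25), factors of dorsal progenitors, among those that rose, and Id2 (-0.22) and Zbtb18 (-0.19), made in postmitotic neurons, among those that fell. Of 14 genes of radial glia and intermediate progenitors 6 rose, including Insm1 (0.38) and Sox2 (0.22), and 2 fell, Slc1a3 (-0.37) and Fabp7 (-0.26). In Wapl heterozygotes 0 of these genes were called by edgeR, beside 2.22% of all genes. In double heterozygotes 3 of the 14 progenitor genes rose and 1 fell, beside 0.812% of all genes higher and 2.46% lower.

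Markers of other cells of the brain moved in the same Nipbl+/- libraries. Of 9 genes of astrocytes and oligodendrocyte precursors 5 fell, and the summed level of that list was 11421 to 13747 against 14526 to 15574 in WT. Of 7 genes of microglia and macrophages 5 fell, with summed levels of 2086 to 2504 against 2739 to 3132. Of 7 general neuronal genes 2 fell (Syt1 and Snap25), with summed levels that overlapped WT. No gene of these 3 lists was at 0 in all libraries. Among neurons that share factors with the deep layers, 4 of 14 striatal genes fell and 3 rose, 5 of 10 Purkinje cell genes fell and 3 rose, and 3 of 8 thalamic genes fell and 3 rose. For Cajal-Retzius cells 3 of 6 fell and 2 rose, and for cortical interneurons 3 of 11 fell and 6 rose. Of the genes of hindbrain and midbrain identity 3 of 9 rose, of endothelium and pericytes 1 of 6 rose and 1 fell, of choroid plexus 1 of 6 rose, and of meninges (7 genes) and blood (6 genes) none was called. In the double heterozygotes 6 of 9 genes of astrocytes and oligodendrocyte precursors fell, with summed levels of 11318 to 13569, and 2 of 7 microglial genes fell, with summed levels of 2369 to 2726, both below all WT libraries. Of the genes of hindbrain and midbrain identity 3 of 9 rose there, with summed levels of 2262 to 3445 against 2245 to 2704 in WT. Over all genes 2.46% were called lower and 0.812% higher in double heterozygotes. In Wapl heterozygotes 3 of 7 meningeal genes rose, beside 0.769% of all genes, and the summed level of that list ran from 12269 to 23538 against 11256 to 15714 in WT. In the same comparison 2 of 6 genes of endothelium and pericytes rose, Cdh5 (0.15) and Pdgfrb (0.19). Reln of the Cajal-Retzius list (-0.33) and Rgs9 of the striatal list (-0.50) fell, beside 1.45% of all genes lower. The part of these cell types in the levels of the 9 factors and of the other layer genes was not tested.

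Some of the factors varied together across libraries. Over the 21 libraries 29 of the 36 pairs of factors had a positive correlation of log2 CPM, and 12 pairs passed an adjusted p of 0.05 in a permutation test of Pearson's r (8 for Spearman's rho), none of the 12 with Rorb or Foxp2. The closest pair crossed the layers, Cux2 with Tbr1 (r = 0.82, permutation p = 6e-05, adjusted p = 0.00198). Its rho was 0.73 (permutation p = 0.00028, adjusted p = 0.00492). The tests were two-sided, with 100000 permutations and adjustment over the 36 pairs. Without the 2 libraries farthest from the median of Cux2, replicates 3 and 5 of the double heterozygotes, r was 0.63. It was 0.65 without replicate 7 of the Wapl heterozygotes and replicate 5 of the double heterozygotes, 0.86 on deviations from group means, 0.53 within the 12 libraries of the low mt-Nd3 set and 0.87 within the 9 of the high set. The median r of pairs was 0.30 within the upper layer, 0.33 within the deep layers and 0.38 between them. On deviations from group means these medians were 0.33, 0.57 and 0.41. The deep layer pairs were highest there with all 21 libraries kept. That ranking was not computed without the 2 libraries that stood apart. Without them r itself ran from -0.069 to 0.479 within the upper layer, from -0.485 to 0.677 within the deep layers and from -0.476 to 0.658 between them. Without the 2 libraries that stood apart, r was lower in each of the 12 pairs, and these values carry no test. It ran from 0.28 for Bcl11b with Tbr1 (0.72 with them) to 0.677 for Fezf2 with Tbr1 (0.682 with them). For Cux2 with Tle4 it was 0.33 (0.66 with them), and for Pou3f2 with Bcl11b 0.30 (0.59 with them). Foxp2 had a negative r with 5 of the other 8 factors, and its lowest was with Cux2 (-0.32). The 12 pairs did not hold alike across the mt-Nd3 sets. With only the 12 low mt-Nd3 libraries, r was -0.058 for Pou3f2 with Bcl11b, -0.043 for Pou3f2 with Fezf2 and -0.009 for Bcl11b with Tbr1. With only the 9 high mt-Nd3 libraries, which include the 2 that stood apart, r for these pairs was 0.945, 0.937 and 0.877. Cux1 with Pou3f2 (0.72 low, 0.53 high) and Fezf2 with Tbr1 (0.717 low, 0.683 high) went the other way. These values by set carry no test.

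**Figure D5:**
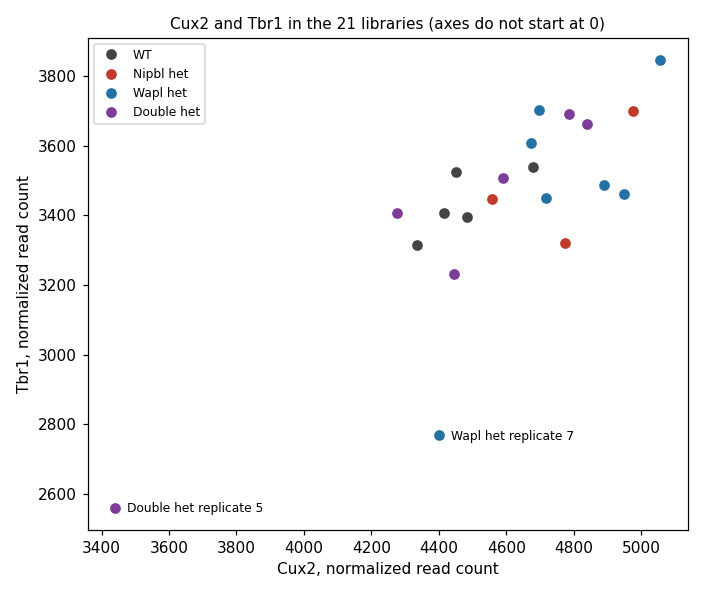
Normalized read count of Tbr1 (vertical axis) against that of Cux2 (horizontal axis) in the 21 libraries, coloured by genotype group, with axes that do not start at 0. Replicate 5 of the double heterozygotes (3440 and 2561) and replicate 7 of the Wapl heterozygotes (4400 and 2769) lie low on both axes or on Tbr1, and Tbr1 was between 3231 and 3845 in the others.

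Among 17302 genes with a mean of 1 CPM or more, the genes whose levels were most like those of a factor over the 21 libraries, by Pearson's r as a description, included known cortical genes. Pou3f2 was closest to its partner Pou3f3 (r = 0.87), Fezf2 to Cdon (0.91) and Neurod2 (0.90), a factor of cortical excitatory neurons, and Tbr1 to Efnb2 (0.93) and Aff3 (0.90). Cux2 was closest to Cabin1 (0.95), Bcl11b to Mapk1ip1l (0.88) and Map4k4 (0.87), and Cux1 to Ephb1 (0.80) and 6530402F18Rik (0.80). The neighbours of the others were 4930513N10Rik (0.76) and Pak7 (0.75) for Rorb, Sh3rf3 (0.80) and Tmem108 (0.76) for Tle4, and Matr3 (0.82) and Hdgfl3 (0.80) for Foxp2. The libraries share a tissue and a method, and the part of the amount of cortex in each library was not tested.

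The factors lie on 7 chromosomes (GRCm38, RefSeq coordinates). Cux1 spans chr5:136248135-136567590 and Cux2 chr5:121857962-122050415. Rorb spans chr19:18930609-19111196 and Tle4 chr19:14448072-14598183. Pou3f2 lies at chr4:22482095-22488366, Bcl11b at chr12:107910403-108004145, Tbr1 at chr2:61802863-61814114 and Foxp2 at chr6:14901349-15441977. Fezf2 lies at chr14:12338992-12346803 on the chromosome of Wapl, 22.3 Mb from it. The spans ran from 6.27 kb (Pou3f2) to 541 kb (Foxp2). The noncoding gene Gm16599 lies inside the span of Cux1, with a median of 16 reads in the table.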

How the data were processed

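The authors trimmed paired poly(A) RNA reads with cutadapt 2.4, mapped them to mm10 (GRCm38) with STAR 2.5.3a, counted them with featureCounts (Subread 1.6.4) and deposited raw counts per gene. The annotation and the settings for strand and shared reads are not given in the sources used here. Groups came from the sample labels. The tests used edgeR 4.0.16 in R 4.3.3 with TMM scaling and quasi-likelihood fits, each pair of groups on its own libraries and the interaction on all 21. A gene was tested where its normalized counts over all libraries summed to 10 or more, and a Benjamini-Hochberg adjusted p below 0.10 over all of them was a call. DESeq2 1.42.0, its size factors, other filters, an mt-Nd3 term, a replicate block and leaving out each library were alternatives. Log2 CPM used a prior count of 2. The 9 factors and the 18 other gene lists were chosen with earlier results of these data known. Named are the factors and, per list and comparison, up to 4 called genes in each direction with the smallest adjusted p, plus the 2 genes most like each factor. A few genes under this rule are not reported here. Otx1, Nxph4 and Nfib are so named, and a few others were chosen after their values were seen. No sequences are printed.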

Additional observations from a re-analysis of the deposited data

Results flagged for a closer look

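Tbr1 in replicate 7 of the Wapl heterozygotes measured 2769 normalized counts, where the nearest of the other 6 libraries measured 3450 and the farthest 3845. The gap was 0.633 of the range of the group, beyond the limit of Dixon's test for 7 samples. It was the sole value so far from its group among 27 combinations of a factor with a group of 4 to 10 libraries, and chance alone flags about 1 in 20 of such groups. In that library 8 of the 9 factors were the lowest of the Wapl heterozygotes, all but Foxp2, among them Bcl11b (5360), Fezf2 (816), Pou3f2 (2245) and Cux2 (4400).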

How the results depend on the processing

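Fezf2 in Nipbl+/- brains kept its direction in every alternative (log2 fold change 0.13 to 0.29, adjusted p 0.00071 to 0.174). Of the 9 factors, 0 were called there with all 4 groups in one fit, in the low mt-Nd3 libraries, with an mt-Nd3 term and with the replicate block, and 2 without a filter (Bcl11b added), and 0 to 3 when single libraries were left out (3 without Nipbl+/- replicate 2, 0 without replicate 3). In Wapl heterozygotes 2 were called with the replicate block (Cux2 0.125, Fezf2 0.167), 1 with deletion-first labels (Fezf2 0.177), 1 without replicate 7 of the Wapl heterozygotes and replicate 5 of the double heterozygotes (a choice made after seeing the data), and 0 to 1 over single omissions. In double heterozygotes 1 was called without those 2 libraries, and 0 to 1 over single omissions. Other log2 fold changes crossed 0, all of them small and not called; the cause was not tested. In Nipbl+/- brains Tbr1 became -0.0069 in the low mt-Nd3 set and with the mt-Nd3 term, and -0.0080 with the replicate block. In Wapl heterozygotes Rorb became 0.0048 without those 2 libraries, 0.045 with deletion-first labels, 0.020 in the low set and 0.0095 with the term. Bcl11b became 0.0255 without them, 0.0011 in the fit of 4 groups, 0.0475 in the high set, 0.027 with deletion-first labels, 0.018 with the term and 0.027 with the replicate block. Tle4 became 0.014 without them, 0.012 (4 groups), 0.034 (deletion-first), 0.035 (low set), 0.0087 (term) and 0.011 (replicate block), and Tbr1 -0.0037 in the low set. In double heterozygotes Cux2 became 0.041 without those 2 libraries, 0.037 with deletion-first labels and 0.032 in the low set, Tbr1 0.031, 0.026 and 0.011, Rorb -0.011 in the low set, and Pou3f2 -0.0083 in the low set and -0.0080 with the replicate block. Over single omissions the ranges were -0.11 to 0.0007 (Rorb) and -0.017 to 0.052 (Tbr1) in Nipbl+/- brains; -0.041 to 0.0048 (Rorb), -0.039 to 0.0255 (Bcl11b), -0.011 to 0.014 (Tle4) and -0.0084 to 0.066 (Tbr1) in Wapl heterozygotes; -0.052 to 0.041 (Cux2), -0.014 to 0.021 (Rorb), -0.015 to 0.040 (Pou3f2), -0.066 to 0.031 (Tbr1) and -0.0061 to 0.035 (Foxp2) in double heterozygotes; and -0.16 to 0.012 (Fezf2) between double heterozygotes and Nipbl+/-. Counts of called genes over the whole table moved by over 1.5 times, from 1658 to 4788 in Nipbl+/-, 7 to 1991 in Wapl heterozygotes, 1 to 2504 in double heterozygotes, 1 to 59 in double heterozygotes against Nipbl+/-, 24 to 626 in double against Wapl heterozygotes, 8 to 647 in Nipbl+/- against Wapl heterozygotes and 0 to 945 for the interaction. Deviations of libraries with the same replicate number had r from -0.097 to 0.049 in Nipbl+/- against WT and from -0.272 to 0.45 over all 6 comparisons. In double heterozygotes against Nipbl+/- every pair was above 0 (0.017 to 0.353, own number best in 2 of 3 pairs), but in no comparison was every pair over 0.1, so the numbers are taken as names only. With 3 Nipbl+/- libraries, the 95% intervals of the factors spanned 0.16 to 0.25 in width on the log2 scale.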
